A study of Homo sapiens with 6 samples.

Results

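Before a ribosome can make a protein it has to find the start codon, and the genes for 8 factors that guide this choice are described here in MG63 cells. They are EIF1, EIF1B, EIF1AX, EIF2S1, EIF2S2, EIF2S3, EIF5 and EIF5B, taken by exact gene symbol from the 61806 genes of the deposited table, so pseudogene copies are not among them. MG63 is an established human osteosarcoma line. The cells carried either a stable short hairpin against FTO (shFTO) or a control hairpin (shNC), with 3 biological replicates per group, and poly(A) RNA was sequenced from each. FTO encodes an enzyme that takes the methyl group off N6-methyladenosine (m6A) in RNA, and the comparison asked which transcripts depend on it. Nothing beyond the hairpins is named as a difference between the groups, and the labels do not say how many clones or hairpin sequences stand behind them.

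The small ribosomal subunit scans a messenger RNA from its capped end with several of these proteins attached. The factor eIF2 has an alpha, a beta and a gamma subunit, encoded by EIF2S1, EIF2S2 and EIF2S3, and it carries the initiator methionine tRNA bound to GTP. eIF1, encoded by EIF1 and its paralog EIF1B, together with eIF1A, encoded by EIF1AX, keeps the subunit open for scanning and opposes initiation at poor start sites. eIF5 makes eIF2 hydrolyse its GTP and favours commitment to the start codon, and eIF5B then joins the large subunit. Phosphorylation of eIF2 alpha under stress slows this cycle for most messages and favours a few with upstream reading frames. All values below are RNA levels and measure neither the proteins nor translation.

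A start codon is read most readily when an A or G lies 3 bases before it and a G follows it, and messages of the initiation machinery are themselves read by this rule. The start sites of the 8 messages are shown because the encoded proteins weigh this context. They are taken from GENCODE release 29 on GRCh38, from the principal coding transcript of each gene, with 12 bases before and 6 after the start codon, and the capitals mark the start codon.
EIF1: gaatcgtatcgtATGtccgct
EIF1B: cactagtatcgcATGtccact
EIF1AX: gccgccaccgccATGcccaag
EIF2S1: acatacctcagaATGccgggt
EIF2S2: cgagccgcagccATGtctggg
EIF2S3: tcttttggcaacATGgcgggc
EIF5: taataagccaaaATGtctgtc
EIF5B: cattgacaagcaATGgggaag
EIF1 and EIF1B had neither favoured letter, a form found in 6.91% of 18678 protein-coding genes with an annotated ATG start. EIF2S3 and EIF5B had both, as did 42.7% of those genes. EIF1AX, EIF2S1, EIF2S2 and EIF5 had the A or G before the start codon but no G after it. The paralogs without favoured letters lay far apart in level, with EIF1 at the top of the 8 genes and EIF1B among the sparse ones, as the values below show.

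Expression was deposited as FPKM, that is reads scaled to exonic length and to the total reads of the library. Each value corresponded to a whole number of reads, and the smallest library totals for which this holds, used throughout, lay between 93629 and 106245. FTO itself was listed at 0 in all 6 libraries, where 3 reads over a group, the upper limit a count of 0 allows, would stand at 0.462 FPKM in shFTO and 0.486 FPKM in shNC, so FTO gives no check of the labels. Of 10 markers of the bone and mesenchymal lineage 7 had reads, with ALPL, BGLAP and SPP1 at 0. Their sum was 95.1 to 103 of 100000 reads in shFTO and 76.9 to 97.0 in shNC. Reads were found for 2 of 5 epithelial, 0 of 5 blood and 1 of 3 endothelial markers. Epithelial reads came to at most 3.76 of 100000 in shFTO and 1.07 in shNC, and the part of either list in the results below was not tested. In bulk RNA, fewer cells that express a gene and less RNA per cell cannot be told apart.

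Together the 8 genes held 27091 of 592760 reads, or 4.57%. EIF1 alone held 70.8% of their reads, and EIF1 and EIF5 together 94.8%. The 8 genes made up 4.38%, 4.39% and 4.59% of reads in shFTO replicates 1, 2 and 3, against 4.54%, 4.99% and 4.52% in shNC replicates 1, 2 and 3. The groups overlapped, and the highest share was in shNC replicate 2.

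All 8 genes had reads, and their mean levels over the 6 libraries ran from 8931 FPKM for EIF1 to 1.21 FPKM for EIF1AX. The order was EIF1, EIF5 at 1316 FPKM, EIF2S1 at 394, EIF2S2 at 87.3, EIF1B at 15.8, EIF2S3 at 5.11, EIF5B at 1.89 and EIF1AX. The 6 libraries of EIF1, EIF5, EIF2S1, EIF2S2 and EIF1B did not overlap from one gene to the next in this order. EIF1B, EIF2S3, EIF5B and EIF1AX each overlapped the next, so their order is not set beyond the spread of the libraries. Reads divided by the length of the principal transcript, in place of all exonic sequence of the gene, gave the same order. By mean FPKM, EIF1 ranked 2 and EIF5 ranked 20 among 7057 genes with reads, while EIF2S3 ranked 1541 and EIF5B 2728. The 3 subunit genes of eIF2 lay far apart in this order. Among the same deposited values, the actin gene ACTB stood at 24.8 FPKM in shFTO and 33.1 in shNC. VIM stood at 22.1 and 33.3 FPKM, while the myosin gene MYL6 stood at 1314 and 1273. Whether the deposited levels follow those in the cells was not tested, so ranks and gaps describe the deposited values only.

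**Figure D1:**
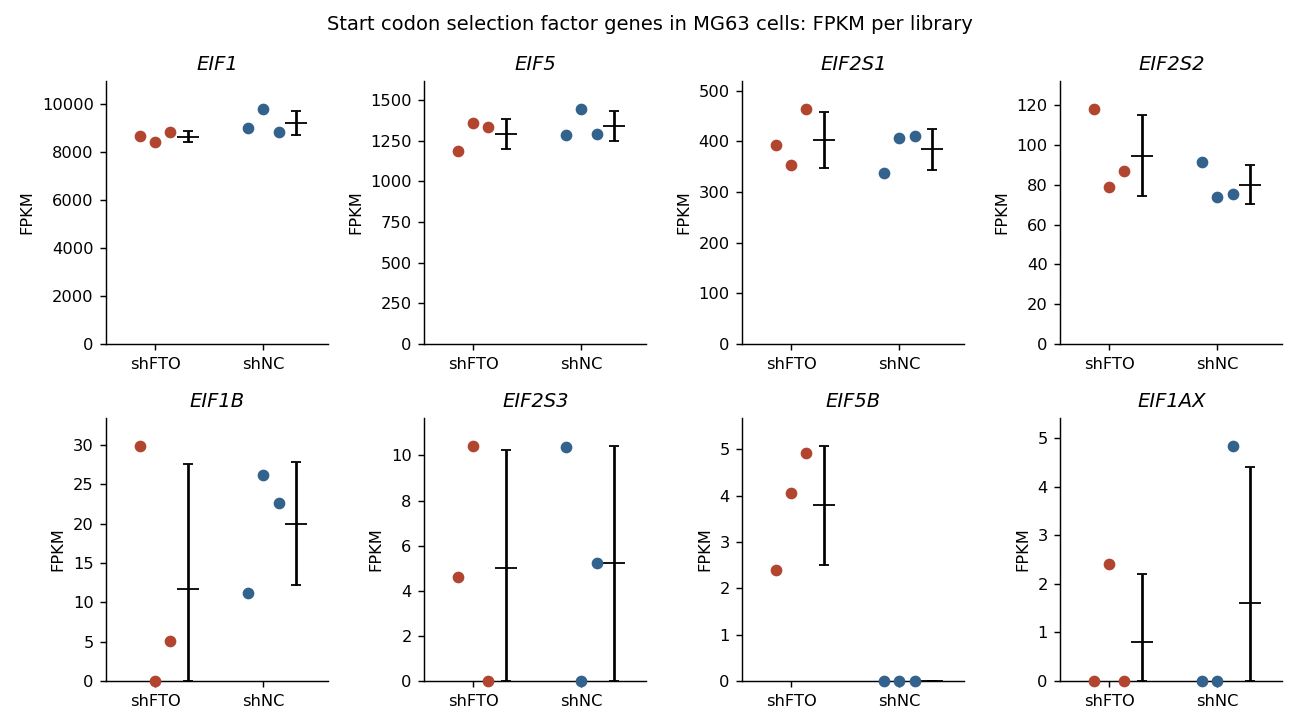
FPKM of each of the 8 genes, from highest to lowest mean, in 3 shFTO libraries (red) and 3 shNC libraries (blue); each point is 1 library in replicate order, and bars give mean ± SD, cut at 0. Each vertical axis starts at 0 and has its own range. The groups are apart for EIF5B alone, at 2.39 to 4.92 FPKM in shFTO and 0 in shNC. Of all genes tested, 2.9% were apart with shFTO higher and 3.69% with shFTO lower.

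In the test across all genes (limma on log2(FPKM + 1), Benjamini-Hochberg adjustment over 4932 genes, called under 0.05), 0 of the 8 genes were called, where 0.0406% of all genes tested were. Those were 2 genes, both lower in shFTO and neither of them among the 8. The direction of calls was not the same in other settings, with 5 higher and 2 lower at a pseudocount of 0.1 FPKM. At an unadjusted limma p under 0.05 stood 2 of the 8, EIF1 and EIF5B, against 3.85% of all genes tested. In a quasi-Poisson fit to the recovered reads, 0 of 1021 genes were called, or 0%, and 58 had an unadjusted p under 0.05, or 5.68%, EIF1 among them. Limma-voom on the same reads called 5 of 4932 genes, or 0.101%, none of them among the 8. All 8 passed the filter of a mean of 1 FPKM in one group. EIF5B did so through shFTO alone and EIF1AX through shNC alone, so their place in the test depended on the group where they were higher. The estimate was higher in shFTO for 3 of the 8 and lower for 5, with a median log2 fold change of -0.05, against 0.00 over all genes tested.

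**Figure D2:**
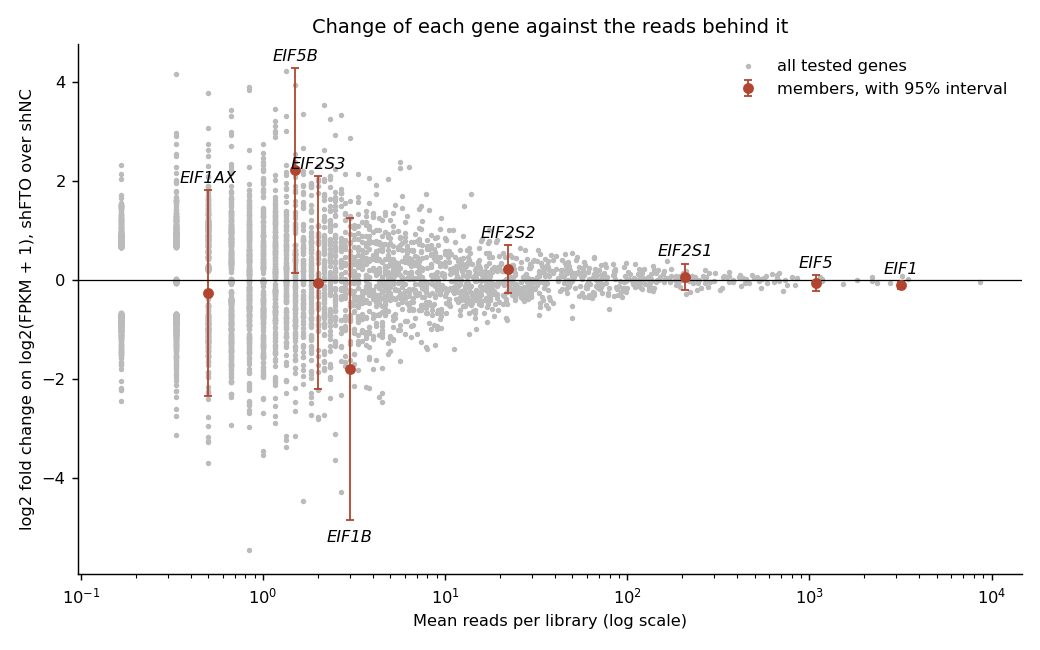
Each gene tested (grey) by its mean reads per library on a log scale and its log2 fold change of shFTO over shNC on log2(FPKM + 1); red points are the 8 genes with unadjusted 95% limma intervals. EIF1, EIF5, EIF2S1 and EIF2S2 lie within 0.3 of 0, and the intervals of EIF1B, EIF2S3, EIF5B and EIF1AX, which had 3 reads per library or fewer, each span several units.

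EIF1 encodes the factor that keeps scanning ribosomes from starting at poor sites (ENSG00000173812, GRCh38 chromosome 17, 41688885 to 41692668, plus strand). It stood at 8690.0, 8414 and 8852 FPKM in shFTO replicates 1, 2 and 3, against 8999, 9792 and 8838 FPKM in shNC replicates 1, 2 and 3. The shFTO libraries were the lower ones except that shFTO replicate 3 lay just above shNC replicate 3, so the groups overlapped by 1 pair of libraries. The means were 8652 ± 221 FPKM in shFTO and 9210 ± 511 in shNC (SD, n = 3 each). On the log2 scale the difference was -0.09 (SE 0.04, limma adjusted p = 0.772). Its unadjusted 95% interval ran from 0.891-fold to 0.993-fold, so a 2-fold change lay far outside it. These values rest on 9531 and 9657 reads, the most of the 8 genes. The limma SE and interval of EIF1 draw in part on the spread of other genes. Its unadjusted limma p was 0.027 here and 0.0692 with at least 10 reads per library. It was 0.131 in limma-voom and 0.00206 in the quasi-Poisson fit. Whether an interval for EIF1 leaves out a ratio of 1 thus depended on the setting. Without shNC replicate 2, the highest library, the log2 fold change was -0.04 (limma adjusted p = 0.785).

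The quasi-Poisson fit, with dispersions moderated by limma, gave EIF1 a log2 change of -0.09 (SE 0.03, limma-moderated adjusted p = 0.263) and rank 8 of 1021 genes by p. That fit gave EIF1 a moderated dispersion of 1.94, while its own libraries gave 6.05, so its SE is smaller than the spread of the EIF1 values themselves supports. The coefficient of variation of EIF1 was 2.56% in shFTO and 5.55% in shNC, against 1.77% and 1.76% from counting error alone. The shNC spread was 3.15 times the counting error, where the median over 150 genes with at least 100 reads per library was 1.24 and the 90th percentile 2.14. In shFTO the same ratio was 1.44, against a median of 1.38. For EIF5 the ratios were 2.33 in shFTO and 2.19 in shNC, where the 90th percentiles were 2.57 and 2.14.

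**Figure D3:**
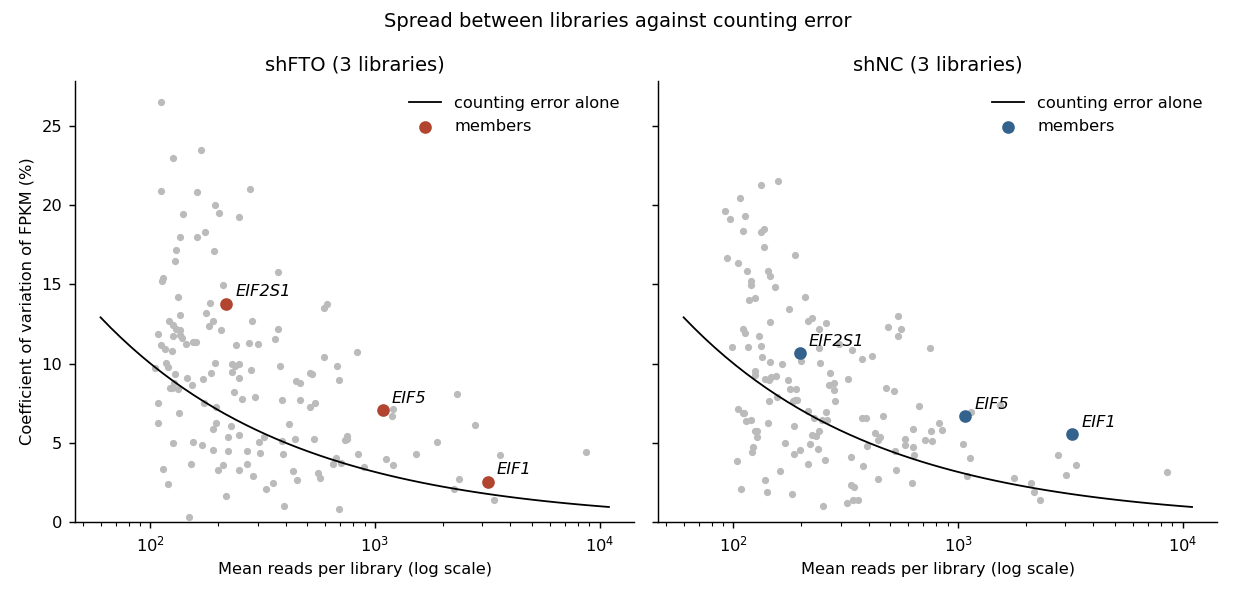
Coefficient of variation of FPKM over the 3 libraries of shFTO (left) and shNC (right) against mean reads per library on a log scale, for 150 genes with at least 100 reads per library (grey) and for EIF1, EIF5 and EIF2S1 (coloured); the line is counting error alone. EIF5 and EIF2S1 lie above the line in both groups, and EIF1 lies at 3.15 times the line in shNC and 1.44 times in shFTO.

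The 3 genes whose pattern over the 6 libraries was most like that of EIF1, among 149 others with at least 100 reads per library, were CCNL1, AP3S1 and TIAL1. Pearson correlations of log2(FPKM + 1) were 0.96, 0.79 and 0.76, against a median of 0.01 over the 149. CCNL1, a cyclin of the splicing machinery, had 140.2, 129 and 153 FPKM in shFTO and 158, 194 and 135 FPKM in shNC. All of these genes were highest in shNC replicate 2, and they share library totals with EIF1. The correlation with EIF1 was 0.57 for EIF5 and 0.21 for EIF2S1. With 6 libraries these are descriptions only.

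EIF1B, the paralog that encodes a second form of eIF1 (ENSG00000114784, chromosome 3, 40309707 to 40312424, plus strand), had 6, 0 and 1 reads in shFTO replicates 1, 2 and 3, against 2, 5 and 4 reads in shNC replicates 1, 2 and 3. That was 29.9, 0 and 5.12 FPKM in shFTO and 11.2, 26.2 and 22.6 FPKM in shNC. The highest and the lowest library were both shFTO, so the groups overlapped. The ratio of read rates was 0.605 with an exact 95% interval of 0.199 to 1.71, and the limma adjusted p was 0.772. The limma log2 fold change of -1.79 was -3.01 without shFTO replicate 1, which held 6 of the 7 shFTO reads, and -0.53 without shFTO replicate 2 (limma adjusted p = 0.378 and 0.773). EIF1B made up 0.134% ± 0.184 of the summed FPKM of EIF1 and EIF1B in shFTO and 0.216% ± 0.0791 in shNC (SD, n = 3 each). Its coding sequence matched that of EIF1 at 82.2% of aligned bases and shared no identical stretch of 50 bases with it. The exact interval of the ratio of read rates includes a ratio of 1, so these reads do not settle a direction for EIF1B.

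EIF1AX encodes eIF1A, which binds beside eIF1 during scanning (ENSG00000173674, X chromosome, 20124525 to 20141838, minus strand). It had 3 reads in all. They were 1 read in shFTO replicate 2 and 2 reads in shNC replicate 3, at 2.41 and 4.84 FPKM, and the other 4 libraries were at 0. The ratio of read rates was 0.476 with an exact interval of 0.00806 to 9.14, which leaves its direction unknown. All exact intervals here cover counting error only, and reads without molecular identifiers are not independent molecules.

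EIF2S1 encodes the alpha subunit of eIF2, which carries the site that stress kinases phosphorylate (ENSG00000134001, chromosome 14, 67360328 to 67386516, plus strand). It had 393, 354 and 463 FPKM in shFTO replicates 1, 2 and 3, against 337, 406 and 409.6 FPKM in shNC replicates 1, 2 and 3. Both the highest and the second lowest library were shFTO, and the groups overlapped. The means were 403 ± 55.6 and 384 ± 41.0 FPKM (SD, n = 3 each), from 654 and 591 reads. The log2 fold change was 0.07 (SE 0.13, limma adjusted p = 0.891), with a 95% interval from 0.869-fold to 1.26-fold. A 2-fold change thus lay outside the interval in either direction. The direction was not kept without shFTO replicate 3 or shNC replicate 1, where the log2 fold change was -0.04 and -0.02.

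EIF2S3, which encodes the gamma subunit that holds GTP and the initiator tRNA (ENSG00000130741, X chromosome, 24054946 to 24078810, plus strand), had 2, 4 and 0 reads in shFTO and 4, 0 and 2 reads in shNC replicates 1, 2 and 3. These 6 reads against 6 stood at 5.01 ± 5.22 FPKM in shFTO and 5.21 ± 5.20 FPKM in shNC. The ratio of read rates was 0.951 with an exact 95% interval of 0.254 to 3.56. EIF2S3B, a close relative listed as protein-coding on chromosome 12, had 5 reads. Its coding sequence matched that of EIF2S3 at 98.2% of bases and shared 45.8% of its stretches of 50 bases, so reads of this pair are uncertain.

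The beta subunit gene EIF2S2 (ENSG00000125977, chromosome 20, 34088309 to 34112243, minus strand) had 118, 79.0 and 87.0 FPKM in shFTO replicates 1, 2 and 3, against 91.2, 73.6 and 75.2 FPKM in shNC replicates 1, 2 and 3. The highest library was shFTO replicate 1 and the groups overlapped. The log2 fold change was 0.22 (SE 0.24, limma adjusted p = 0.772), from 74 and 59 reads, and the log2 fold change was 0.06 without shFTO replicate 1. Its 95% interval ran from 0.835-fold to 1.63-fold.

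A copy of EIF2S2 had more reads than the gene itself. EIF2S2P4, a processed pseudogene of EIF2S2 on another chromosome (ENSG00000128692, chromosome 2, 170751805 to 170752788, plus strand), had 140, 72 and 123 reads in shFTO replicates 1, 2 and 3 and 83, 82 and 109 reads in shNC replicates 1, 2 and 3. EIF2S2 had 32, 19 and 23 reads in the same shFTO libraries and 22, 19 and 18 in the shNC libraries. In every library the copy had more reads than the gene, with 81.6% ± 2.57 of the reads of both in shFTO and 82.0% ± 3.47 in shNC (SD, n = 3 each). Per length the copy stood 11.7 ± 2.04 times above the gene in shFTO and 12.2 ± 3.10 times in shNC, at 1108 ± 294 and 967 ± 190 FPKM. It ranked 34 of all genes by mean FPKM, where EIF2S2 ranked 271.

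**Figure D4:**
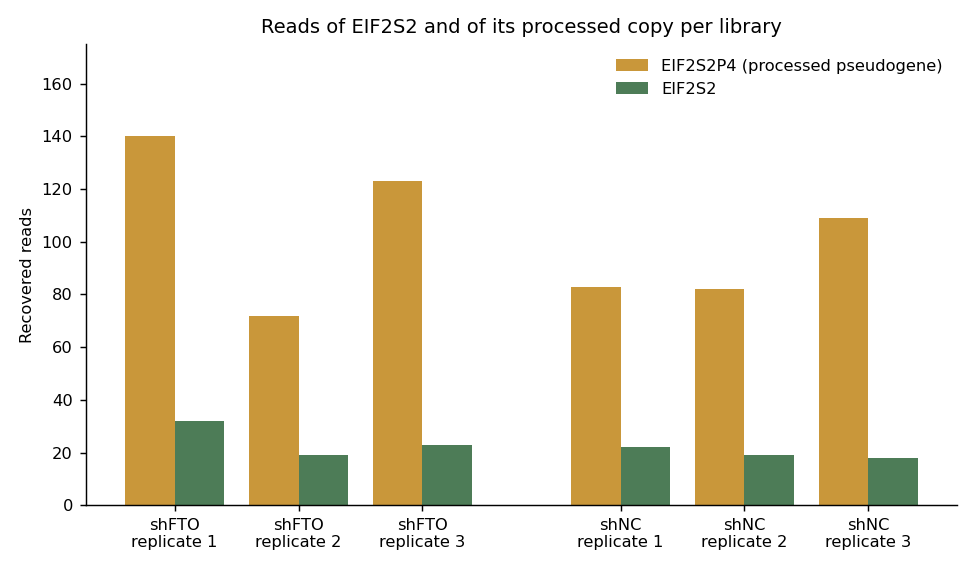
Recovered reads of the processed pseudogene EIF2S2P4 (ochre) and of EIF2S2 (green) in 3 shFTO libraries (left) and 3 shNC libraries (right). The copy has 72 to 140 reads and the gene 18 to 32, and the copy is higher in each of the 6 libraries.

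The copy and the gene were nearly the same in sequence over the coding region. In GENCODE release 29, EIF2S2P4 aligned with bases 223 to 1224 of the principal EIF2S2 transcript, whose coding sequence spans bases 223 to 1221. Of 984 aligned bases, 973 were identical. All 984 bases of the copy were aligned and the span in the gene is longer, so the copy also lacks bases of the gene. The longest run without a difference was 269 bases, and 59.5% of the 50-base stretches of the copy occurred unchanged in transcripts of EIF2S2. A read from such a stretch cannot be told apart by its letters. The 40 bases with the most substitutions show part of what does separate them, with capitals at the bases that differ.
EIF2S2: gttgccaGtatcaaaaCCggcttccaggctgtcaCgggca
EIF2S2P4: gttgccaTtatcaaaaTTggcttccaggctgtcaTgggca
Counted from 1 at the left end, with the base of EIF2S2 first, these are G8T, C17T, C18T and C35T, which are 4 of the 11 substitutions in the alignment. Which locus gave the reads assigned to EIF2S2P4 was not tested, since the deposited values hold no read positions. With the reads of the copy added to the gene, a choice made after the values were seen, EIF2S2 would stand at 521 ± 130 FPKM in shFTO and 452 ± 71.3 FPKM in shNC. Its log2 fold change would be 0.18 (limma adjusted p = 0.772).

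This bears on the balance of the eIF2 subunits, which occur once each in the protein complex. As deposited, the mean levels were 394 FPKM for the alpha, 87.3 for the beta and 5.11 for the gamma subunit gene. The ratio of EIF2S1 to EIF2S2 FPKM was 3.33, 4.48 and 5.33 in shFTO replicates 1, 2 and 3 and 3.69, 5.51 and 5.45 in shNC replicates 1, 2 and 3. With the reads of EIF2S2P4 counted as EIF2S2, the beta subunit gene would lie above the alpha subunit gene on average in both groups, so their order depends on where those reads belong.

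Of the other copies named after a member, none came near this level. Among 21 copies, antisense genes included, 7 had reads and EIF2S2P4 held 609 of their 644. The EIF1 pseudogenes had 29 reads beside 19188 of EIF1, and the 2 EIF5 pseudogenes had none. EIF1P5, on chromosome 17, had 3, 3 and 5 reads in shFTO and 1, 0 and 1 in shNC. All 3 shFTO libraries lay above all shNC libraries, as for 2.9% of genes tested, and the ratio of read rates was 5.23 with an exact 95% interval of 1.14 to 48.6 (limma adjusted p = 0.772). No 50-base stretch of EIF1P5 occurred in EIF1 transcripts, and it was singled out after its values were seen.

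EIF5, the activator of GTP hydrolysis by eIF2 (ENSG00000100664, chromosome 14, 103333544 to 103345025, plus strand), had 1187, 1356 and 1333 FPKM in shFTO replicates 1, 2 and 3, against 1283, 1443 and 1293 FPKM in shNC replicates 1, 2 and 3. The lowest library was shFTO replicate 1, the highest shNC replicate 2, and the groups overlapped. The means were 1292 ± 91.5 and 1340 ± 89.5 FPKM (SD, n = 3 each), from 3257 and 3226 reads. The log2 fold change was -0.05 (SE 0.08, limma adjusted p = 0.846), with a 95% interval from 0.861-fold to 1.08-fold. The direction was not kept without shFTO replicate 1 or shNC replicate 2, where the log2 fold change was 0.007 and 0.0018.

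eIF1 and eIF5 act against each other at the start codon, and the levels of their messages can be set against each other per length. EIF1 FPKM was 7.32, 6.21 and 6.64 times EIF5 FPKM in shFTO replicates 1, 2 and 3, against 7.01, 6.79 and 6.84 times in shNC replicates 1, 2 and 3. The mean ratio was 6.72 ± 0.562 in shFTO and 6.88 ± 0.119 in shNC (SD, n = 3 each), and the shNC libraries lay inside the range of the shFTO libraries. EIF1 stood 21.7 ± 2.38 times above EIF2S1 in shFTO and 24.1 ± 2.57 times in shNC.

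EIF5B, the GTPase that joins the large ribosomal subunit (ENSG00000158417, chromosome 2, 99337371 to 99401326, plus strand), was the member whose groups did not overlap. It had 2, 3 and 4 reads in shFTO replicates 1, 2 and 3, at 2.39, 4.05 and 4.92 FPKM, and was listed at 0 in all 3 shNC libraries. Groups with every shFTO library above every shNC library were found for 2.9% of genes tested, and the reverse for 3.69%. Genes with 0 reads in shNC and a read in each shFTO library were 0.811%. That last pattern was modelled on the EIF5B values. Its share is over genes of all read counts, many of which could hardly show it, and no share among genes with similar reads was taken. The exact 95% interval of the ratio of read rates began at 1.88, which covers counting error only and describes a gene that passed the filter through shFTO alone. In a single shNC library, 3 reads would stand at 4.04, 3.78 and 4.07 FPKM for replicates 1, 2 and 3, which lie within the range of the shFTO values, so the 0 of any single library does not set it apart. EIF5B was not called by limma (adjusted p = 0.772) or by limma-voom on its reads (adjusted p = 0.11). The genes TXNDC9 and REV1 overlap EIF5B on the other strand and had 2 and 2 reads in shFTO and 1 and 3 in shNC. The strand setting of the counting is not stated, and the part of these genes in the EIF5B reads was not tested.

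Factors that act around these 8 were taken as 4 lists. eIF2B recharges eIF2 with GTP, and of its 5 subunit genes EIF2B1 alone had reads, 1 in each group, so 0 could be tested. The eIF2 kinases and phosphatase subunits had 11 reads in shFTO and 14 in shNC over 6 genes. Of 3 tested, 0 were called, where 0.0406% of all genes tested were, and the estimate was higher in shFTO for 1 and lower for 2. Among the 6 genes PPP1R15A, which directs the phosphatase to eIF2 alpha under stress, had 3 and 1 reads. EIF2AK3, the kinase of endoplasmic reticulum stress, had none. EIF2AK1 and PPP1R15B, with 3 and 7 reads in all, passed the filter through shNC alone. Their place among the 3 tested thus depended on the group where they were higher. At this depth the genes that regulate eIF2 had too few reads for a comparison.

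The list of eIF5 mimics, eIF2 assembly and other ribosome factors had 568 reads in shFTO and 594 in shNC over 11 genes. Of 10 tested, 0 were called, where 0.0406% of all genes tested were. The estimate was higher in shFTO for 3 and lower for 7, with a median log2 fold change of -0.24, against 0.00 over all genes tested. Among the 10, EIF1AD and EIF2A, with 1 and 2 reads in all, passed the filter through shNC alone. DHX29, with 2 reads, passed it through shFTO alone. These genes were tested because of the group where they had reads, so the directions and the median do not show a trend of the list. BZW1 and BZW2 encode proteins that resemble the carboxyl-terminal part of eIF5 and compete with it. BZW1 had 128, 145 and 157 FPKM in shFTO and 151, 169 and 162 in shNC (log2 fold change -0.17, SE 0.19, limma adjusted p = 0.772). BZW2 had 105, 159.6 and 100.3 FPKM in shFTO and 165, 119 and 125 in shNC (log2 fold change -0.18, SE 0.21, limma adjusted p = 0.772). Both overlapped between the groups, and both levels were below those of EIF5 and above those of EIF2S2 in every library except for BZW2 in shFTO replicate 1. MCTS1, which helps recycle and reload small subunits, had 12.2, 9.87 and 13.5 FPKM in shFTO and 2.95, 10.1 and 6.95 in shNC, with shNC replicate 2 inside the shFTO range (log2 fold change 0.86, SE 0.63, limma adjusted p = 0.772).

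Of 3 messages known for upstream reading frames that respond to eIF2, ATF5 and DDIT3 had no reads. ATF4, a transcription factor induced when amino acids are short, had 3, 1 and 4 reads in shFTO replicates 1, 2 and 3 and 0, 1 and 0 in shNC replicates 1, 2 and 3. The lowest shFTO library, at 4.07 FPKM, lay just above the highest shNC library, at 3.79 FPKM, with 1 read each, so the gap between them comes from library size. Groups apart in this direction were found for 2.9% of genes tested. The ratio of read rates was 7.61 with an exact 95% interval of 1.02 to 338, and the limma adjusted p was 0.772. RNA level does not show whether the ATF4 message was translated.

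The letters GGACT, part of the sequence in which m6A most often occurs, were counted on the sense strand of the principal transcripts. They were present in 7 of the 8 messages, as in 88.9% of protein-coding genes. EIF5B held 4, EIF5 held 3, EIF1, EIF1B and EIF1AX held 2 each, EIF2S1 and EIF2S3 held 1 each, and EIF2S2 held none. Per kilobase this was highest in EIF1B, at 1.98, and 0.858 in EIF1, against a median of 0.937 over protein-coding genes. A match is a run of letters and not a measured site, and methylation was not measured in these libraries.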

How the data were processed

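Per the labels' protocols, poly(A) RNA of 6 MG63 libraries was reverse-transcribed and amplified. The submitters' processing notes name the build GRCh38 and the tools DESeq2 1.50.2, HTSeq 0.6.1, HISAT2 2.2.1, StringTie 1.3.3b and FastQC 0.10.1, without their order or the strand setting. The authors deposited FPKM per gene, with exonic length and position. Columns were matched to samples by NC or sh and the replicate number.

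For each library, the smallest total between 20000 and 200000 that turned FPKM into whole reads was taken. All values above 0 (100%) then came within 0.05 of a whole read. A whole multiple of a total would also give whole reads, and whether the table holds all reads of a library is not given in the sources used here. Either would change the read counts, and with them the exact intervals and counting errors. Main test: limma 3.58.1 (R 4.3.3), trend and robust moderation, log2(FPKM + 1), 4932 genes averaging 1 FPKM or more in either group, group as the only term. Fold changes on this log2 scale can lie on either side of the ratio of reads for genes with few reads. P-values set the difference between the groups against the spread between the 3 libraries per group, after moderation. The SE, interval and p of a gene thus draw in part on the spread of other genes. Whether the spread between libraries holds differences between clones or hairpin sequences is not known. Exact 95% intervals of ratios used SciPy 1.17.1 (Python 3.11.15), and alignments used Biopython 1.88. The quasi-Poisson fit took genes with at least 30 reads. Replicates of a group differed by more than sampling noise, with chi-square per degree of freedom from 1.78 to 2.08.

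Members, lists and tests were chosen with earlier results of these data known. All members are named; other list genes are named from 10 reads per library or for a count of reads. Gene types, transcripts and sequences came from GENCODE release 29 (GRCh38), in which all 8 members had the same chromosome and strand. Protein sequences were not used here.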

Additional observations from a re-analysis of the deposited data

How the results depend on the processing

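Among 96 values of the 8 genes under the alternatives, 0 were called, and the smallest adjusted p was 0.11, for EIF5B in limma-voom. The direction was the same in 87 and turned in 9. Alternatives that changed only the filter or added the replicate block kept the estimate itself, so they could not turn it. Without shFTO replicate 1 the log2 fold change was 0.0362 for EIF1AX and 0.007 for EIF5. Without shFTO replicate 3 it was 0.0362 for EIF1AX, -0.0373 for EIF2S1 and 0.95 for EIF2S3. Without shNC replicate 1 it was -0.02 for EIF2S1 and 0.68 for EIF2S3, without shNC replicate 2 it was 0.0018 for EIF5, and without shNC replicate 3 it was 0.25 for EIF2S3. With 1 library left out it ran from -0.849 to 0.0362 for EIF1AX, which could not be tested without shNC replicate 3, since it then missed the filter. With each library left out in turn it ran from -3.01 to -0.53 for EIF1B, from -0.0373 to 0.157 for EIF2S1, from -1.07 to 0.951 for EIF2S3 and from -0.0888 to 0.007 for EIF5. EIF1 stayed lower in shFTO in all 13 alternatives, from -0.12 to -0.04, and EIF2S2 stayed higher in all 14. EIF5B stayed higher in all 11, which was fixed in advance, since every shNC library was at 0. The fitted change of EIF5B depended on the pseudocount and was 5.22 with 0.1 FPKM.

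The count of called genes, 2 as reported, was 7 with a pseudocount of 0.1, 9 with no filter and 0 with at least 10 reads per library. It was 5 in limma-voom, 0 in the quasi-Poisson fit and 1 at an adjusted p under 0.01. Without 1 library it ran from 2 to 9. With the replicate number as a block it was 17, none of them a member. Higher against lower calls in shFTO were 0 against 2 as reported, 5 against 2 with the pseudocount of 0.1, 7 against 2 with no filter, 1 against 4 in limma-voom, 13 against 4 with the block and 6 against 3 without shNC replicate 2. Same-numbered libraries did not deviate together, with correlations of -0.0029, 0.039 and -0.012 for replicates 1, 2 and 3 over 705 genes, so the numbers are not taken to pair the samples. The causes were not tested. With about 100000 reads per library, EIF1B, EIF1AX, EIF2S3 and EIF5B rest on 18 reads or fewer each.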
